A study of Mus musculus with 6 samples.

Results

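Receptors for fibroblast growth factors (FGFs) and the genes that FGF signalling switches on to restrain or carry out its own response were examined in the posterior part of mouse embryos with and without Fkbp8. The 10 genes were taken by symbol from the probe annotation and the probe descriptions, and fell into 3 receptors (Fgfr1, Fgfr2 and Fgfr3) and 7 feedback targets (Spry1, Spry2, Spry4, Dusp6, Etv4, Etv5 and Spred1). They were read by 11 of the 34967 gene probes on the array, with a pair of probes for Spry4 and 1 for each other gene. All 11 were among the 21688 probes tested.

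Fkbp8 mutants (replicates a, b and c) were compared with wildtypes (replicates d, e and f), 3 samples each, all at E9.5 and all from crosses between heterozygous carriers. The tissue lay directly behind the forelimb bud, and every sample went onto a separate 1-colour CodeLink array. The series title names neural tube patterning and cell death as the questions asked of Fkbp8, and does not name FGF signalling. The labels do not describe the mutant allele, and the source label of mutant a names embryos in the plural, so whether that sample was a pool is not settled. Where nothing in the labels tells separate embryos apart, p-values measure only the spread between these samples.

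FGFs are secreted ligands that bind receptor tyrosine kinases and, through adaptors and the RAS-ERK kinase cascade, change transcription in the receiving cell. In the posterior embryo they are known for keeping the tailbud and presomitic mesoderm immature, for setting the pace of neural differentiation next to it and for limb bud outgrowth. Sprouty and Spred proteins, which block RAS-ERK signalling, and Dusp6, a phosphatase that inactivates ERK, are themselves induced by the pathway, as are the ETS transcription factors Etv4 and Etv5. Their RNA is therefore widely used as a readout of FGF activity.

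The arrays matched their genotype labels. Its probe detected Fkbp8 on 3 of 3 arrays of wildtypes and on 0 of 3 of mutants, where the gene was at least 18.8-fold lower (limma adjusted p = 1.18e-07). The sources used here do not state where the probe lies relative to the mutation. Between 20144 and 21612 gene probes per array were above background, with the fewest on mutant c, which also had the lowest median signal. A pair of genes named after their values were seen also separated the groups: the Y-linked Eif2s3y was detected on 3 of 3 mutant and 0 of 3 wildtype arrays, and Xist, the RNA of the inactive X, on 0 of 3 and 3 of 3. Effects of genotype and of sex on any member cannot be told apart. Of the 15 tailbud and presomitic mesoderm markers listed, 15 were measured, as were 9 of 10 markers of the limb field and lateral plate.

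The FGF receptors and feedback targets differed little between mutant and wildtype tissue. Of the 11 probes, 0 passed an adjusted p of 0.05 in limma, where 0.12% of all probes tested passed. At an unadjusted p under 0.05 there were also 0 of the 11, against 12.2% of all probes, and the groups overlapped at every one of the 11 probes, whereas they did not overlap for 19.7% of all probes. Fitted log2 fold changes (mutant minus wildtype) ran from -0.12 (Fgfr2) to 0.15 (Fgfr3). The 3 receptors had a median of 0.12 and the 7 feedback targets a median of -0.05, next to 0.01 over all probes tested. Whether receptors and targets differ from each other in this was not tested.

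A p-value that misses the threshold does not show equal levels, so the intervals of the differences matter here. The 95% intervals of all 11 probes lay within 2-fold in either direction. The widest downward bound was that of Dusp6, at a fold of 0.738 of wildtype, and the widest upward bound that of Fgfr3, at 1.40-fold. Background correction with an offset makes changes of dim probes look smaller than they are. With plainly background-subtracted values instead, the outermost bounds were 1.50-fold lower for Dusp6 and 1.67-fold higher for Fgfr3.

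**Figure D1:**
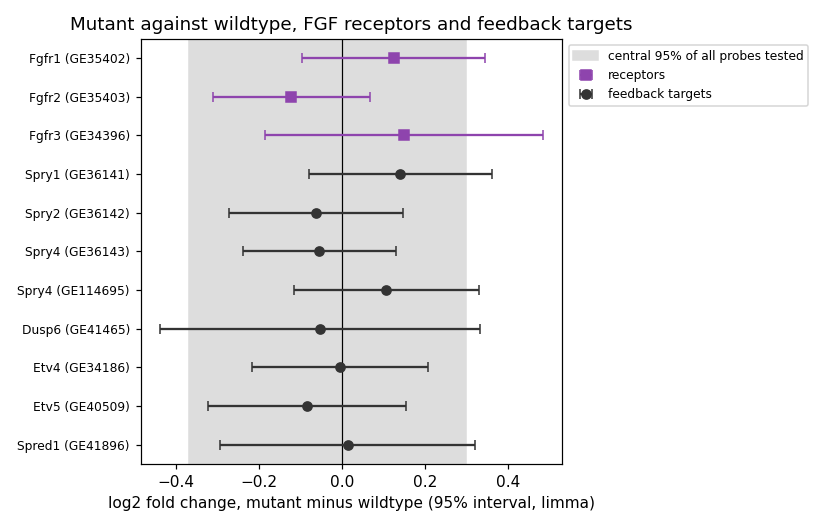
Log2 fold change (mutant minus wildtype, 3 arrays each; probe Spry4 GE114695 had 2 mutant values) with 95% intervals from limma for each member probe, squares for receptors and circles for feedback targets. The grey band holds the central 95% of fold changes of all 21688 probes tested (-0.37 to 0.30); all 11 intervals include 0.

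Among the receptors, Fgfr1, a receptor broadly expressed in early mesoderm and neural tissue, gave log2 intensities of 8.90, 9.17 and 9.06 in mutants a, b and c and of 8.80, 8.94 and 9.02 in wildtypes d, e and f. Mutant a lay below the wildtypes e and f, so the ranges interleaved. The difference was 0.12 (SE 0.10, 95% interval -0.10 to 0.34, limma adjusted p = 0.63), and an exact two-sided permutation test gave p = 0.4, where 3 against 3 cannot go below 0.1.

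Fgfr2, a receptor with epithelial and mesenchymal splice forms, read 8.30, 8.05 and 8.19 in mutants a, b and c and 8.32, 8.30 and 8.28 in wildtypes d, e and f. The wildtypes were tightly spaced (SD 0.02, n = 3) and the mutants more widely (SD 0.12, n = 3), with mutants b and c below all wildtypes and mutant a among them. The difference was -0.12 (SE 0.08, 95% interval -0.31 to 0.07, limma adjusted p = 0.58), the smallest p of the 11 probes, at rank 6624 of 21688. The probe was designed to an EST, and the sources used here do not give the splice form it reads.

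Fgfr3, a receptor expressed by neural progenitors of the spinal cord among other cells, read 7.98, 7.49 and 7.89 in mutants a, b and c and 7.74, 7.76 and 7.40 in wildtypes d, e and f. Each group held 1 low array, mutant b and wildtype f, well below the other two. The difference of 0.15 (SE 0.15, 95% interval -0.19 to 0.48, limma adjusted p = 0.71) became 0.30 without mutant b and 0.03 without wildtype f. A further probe, GE1396286, carries no gene symbol but is described as an EST similar to Fgfr3, and by the rule it is no member. Its difference was 0.02 (SE 0.14, limma adjusted p = 0.974), with low values on mutant c (7.30) and wildtype f (7.29).

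Sprouty proteins are intracellular inhibitors of signalling from receptor tyrosine kinases. Spry1 read 11.17, 11.16 and 10.89 in mutants a, b and c and 10.88, 11.02 and 10.90 in wildtypes d, e and f. Mutants a and b lay above every wildtype, while mutant c lay between wildtypes d and f. The difference was 0.14 (SE 0.10, 95% interval -0.08 to 0.36, limma adjusted p = 0.586).

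Spry2 read 7.40, 7.19 and 7.09 in mutants a, b and c against 7.30, 7.30 and 7.27 in wildtypes d, e and f. The wildtypes were tightly spaced (SD 0.02, n = 3), and the mutants spread over both sides of them (SD 0.16, n = 3). The difference was -0.06 (SE 0.09, 95% interval -0.27 to 0.15, limma adjusted p = 0.812). The Spry2 probe was close to background, with background-subtracted intensities of 66.5 to 111.2 over local backgrounds of 48 to 54.

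The brighter Spry4 probe read 7.15, 7.001 and 7.20 in mutants a, b and c and 7.15, 7.22 and 7.15 in wildtypes d, e and f, so that only mutant b stood outside the wildtype range. Its difference was -0.05 (SE 0.08, 95% interval -0.24 to 0.13, limma adjusted p = 0.815). The dimmer Spry4 probe read 7.15 and 7.03 in mutants b and c and 7.09, 6.96 and 6.91 in the wildtypes, and the spot of mutant a was marked contaminated and left out of the fit. At 0.11 (SE 0.10, 95% interval -0.12 to 0.33, limma adjusted p = 0.685), it had the opposite sign. Both probes were close to background, with background-subtracted intensities of 74.0 to 93.1 and 61.9 to 88.8 over local backgrounds of 48 to 55 and 42 to 55.

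Dusp6, the ERK phosphatase, read 8.54, 8.69 and 8.36 in mutants a, b and c and 8.32, 8.44 and 8.99 in wildtypes d, e and f. All mutants lay inside the wildtype range, which wildtype f widened upward. The difference was -0.05 (SE 0.17, 95% interval -0.44 to 0.33, limma adjusted p = 0.922), and without wildtype f it was 0.15. Dusp6 had the largest spread between replicates of the 11 probes, with an SD of 0.36 in wildtype and 0.17 in mutants (n = 3 each), and 95.9% of all probes tested had a smaller or equal pooled SD.

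The ETS factors Etv4 and Etv5, of the PEA3 group, act downstream of ERK on transcription. Etv4 read 7.90, 7.93 and 7.71 in mutants a, b and c and 7.86, 7.73 and 7.96 in wildtypes d, e and f, with nearly the same range in both groups. Its difference was -0.0048 (SE 0.09, 95% interval -0.22 to 0.21, limma adjusted p = 0.987). Etv5 read 7.52, 7.16 and 7.37 in mutants a, b and c and 7.51, 7.47 and 7.34 in wildtypes d, e and f. Mutant b was lowest and mutant a highest, with all wildtypes between them, and the difference was -0.09 (SE 0.10, 95% interval -0.32 to 0.15, limma adjusted p = 0.771). The Etv5 probe was dim as well, with background-subtracted intensities of 89.3 to 129.9 over local backgrounds of 49 to 56.

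Spred1, a membrane-bound relative of the Sprouty proteins that keeps RAF from being activated, read 7.77, 7.21 and 7.59 in mutants a, b and c and 7.58, 7.44 and 7.51 in wildtypes d, e and f. The mutants spanned the wildtype range on both sides, with an SD of 0.29 against 0.07 (n = 3 each). The difference was 0.01 (SE 0.13, 95% interval -0.29 to 0.32, limma adjusted p = 0.977). It was 0.17 without mutant b and -0.11 without mutant a.

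**Figure D2:**
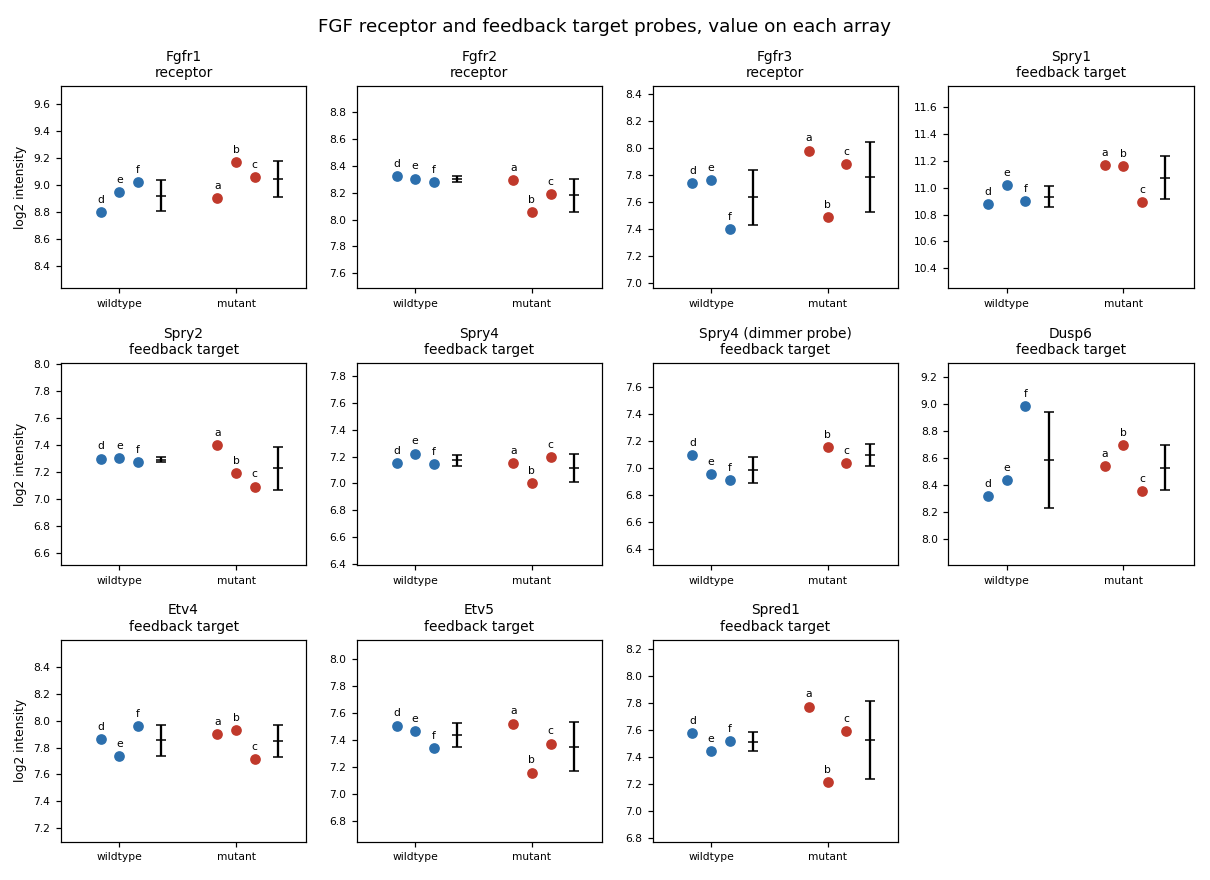
Log2 intensity (vertical axis, 1.5 log2 units in every panel) of each member probe on each array, with letters for replicates and the mean ± SD of each group as bars. Wildtype and mutant points overlap in every panel, and Dusp6 in wildtype f, Fgfr3 in wildtype f and mutant b, and Spred1 in mutant b stand off from the other arrays of their group.

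Spread between replicates differed among the members. The pooled SD ran from 0.08 (the brighter Spry4 probe) to 0.28 (Dusp6), with 0.11 as the median over all probes tested. Fgfr3 (0.23), Spred1 (0.21) and Dusp6 made up the upper end, where 93.1%, 89.8% and 95.9% of all probes had a pooled SD no larger, and the interval of the difference was widest for the same 3 genes. With 1 probe per gene, mutant b was the lowest of the 6 arrays for 4 of the 10 genes (Fgfr2, the brighter Spry4 probe, Etv5 and Spred1), and mutant a the highest for 5 (Fgfr3, Spry1, Spry2, Etv5 and Spred1). Over all probes with 6 values, mutant b was lowest for 19.1% and mutant a highest for 17.8%.

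**Figure D3:**
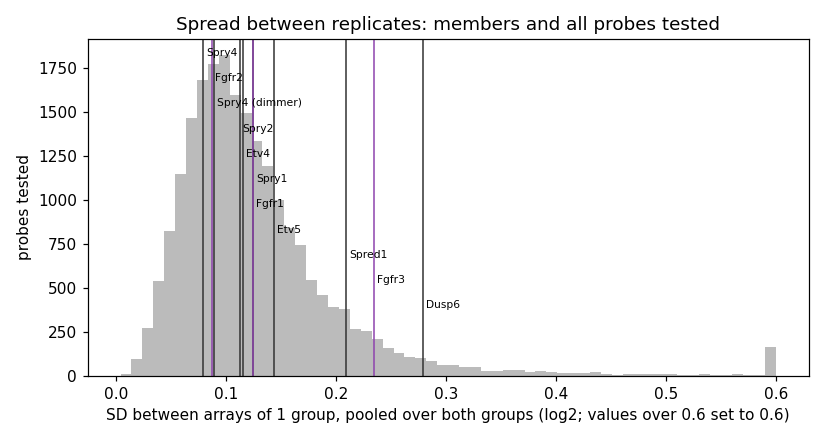
Histogram of the pooled SD between arrays of a group (horizontal axis, log2 units) over all 21688 probes tested, with a line for each member probe, purple for receptors and black for feedback targets. Spred1, Fgfr3 and Dusp6 lie in the right tail, from 0.21 to 0.28, and the other member probes between 0.08 and 0.14.

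Correlations among the 10 genes over the 6 arrays were computed for all 45 pairs. An unadjusted exact permutation p was under 0.05 for 3 pairs, and 0 pairs passed after Benjamini-Hochberg adjustment over the 45. The smallest p that 6 arrays allow is 0.00278. Fgfr1 and Fgfr2 ran opposite to each other (Pearson r = -0.89, exact permutation p = 0.00278, adjusted p = 0.125; Spearman rho = -0.94, exact permutation p = 0.0167, adjusted p = 0.51). Without the 2 arrays farthest from the median of Fgfr1, r was -0.81, and over deviations from the group means it was -0.84. Etv5 ran with Fgfr2 (r = 0.90, exact permutation p = 0.0278, adjusted p = 0.417; rho = 0.77, exact permutation p = 0.103, adjusted p = 0.51) and opposite to Fgfr1 (r = -0.92, exact permutation p = 0.0125, adjusted p = 0.281; rho = -0.89, exact permutation p = 0.0333, adjusted p = 0.51). Without the 2 arrays farthest from the median of the receptor in the pair, these were 0.75 and -0.92. Among the feedback targets, Etv5 had an r of 0.82 with Spred1 (exact permutation p = 0.0528, adjusted p = 0.496; rho = 0.71, exact permutation p = 0.136, adjusted p = 0.51) and of 0.76 with Spry4 (exact permutation p = 0.0861, adjusted p = 0.496; rho = 0.54, exact permutation p = 0.297, adjusted p = 0.743). Without the 2 arrays farthest from the median of Etv5 (mutants a and b), the r with Spred1 was -0.08. Without the 2 farthest from the median of Spry4 (mutant b and wildtype e), the r of Etv5 with Spry4 was -0.33. The arrays left out thus differed between the pairs, and neither r was positive over the remaining arrays. Leaving out the farthest arrays also narrows the range, which by itself can lower r. Over deviations from the group means the values were 0.89 and 0.73. Dusp6 had an r of 0.73 with Etv4 (exact permutation p = 0.0972, adjusted p = 0.496; rho = 0.83, exact permutation p = 0.0583, adjusted p = 0.51), which was 0.36 without the 2 arrays farthest from the median of Dusp6. Feedback targets also ran opposite to each other. Spry4 had an r of -0.68 with Etv4 (exact permutation p = 0.1125, adjusted p = 0.496), which was -0.95 without the 2 arrays farthest from the median of Spry4. Their rho was -0.83 (exact permutation p = 0.0583, adjusted p = 0.51). The points share arrays and their normalization.

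Other genes of the FGF pathway were followed in 6 lists by role, with 1 probe per gene. Of 86 genes listed, 79 had a probe and 63 were bright enough to test. Over all probes tested, 0 of the 63 passed in limma (background 0.12%), while 14 (22.2%, against 12.2% of all probes) had an unadjusted p under 0.05, 5 of them higher and 9 lower. The groups did not overlap for 16 (25.4%, against 19.7% of all probes). Their median log2 fold change was 0.01, as over all probes.

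Among the ligands, 11 of 18 were tested. Fgf8, the ligand of the tailbud and presomitic mesoderm, read 9.68, 9.08 and 9.45 in mutants a, b and c and 9.42, 9.21 and 9.67 in wildtypes d, e and f. The groups overlapped fully, and the difference was -0.03 (SE 0.16, limma adjusted p = 0.96). Fgf18 (-0.02, SE 0.13) and Fgf10 (0.0014, SE 0.08), the ligand of the limb field, were also near 0. The Fgf10 probe was dim (log2 intensity 6.80 to 6.96), and the offset makes changes of such probes look smaller. Fgf3 had the smallest p of the list, at -0.33 (SE 0.07, limma adjusted p = 0.192), with all mutants (7.89 to 8.01) below all wildtypes (8.25 to 8.31), although its dimmer probe gave -0.06 (SE 0.08). Fgf9 followed with -0.20 (SE 0.08, limma adjusted p = 0.357). Fgf4 was among 7 ligands too close to background to be tested.

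Of the other receptors and co-receptors, Fgfr4 was above background on too few arrays to be tested. Fgfrl1, a receptor-like protein without a kinase domain, was at 0.19 (SE 0.08, adjusted p = 0.387 in limma). Heparan sulphate proteoglycans help FGFs bind their receptors, and 6 of them were tested. The groups did not overlap for 3 (19.7% over all probes): Sdc4 at -0.38 (SE 0.08, limma adjusted p = 0.189), Sdc1 at -0.28 (SE 0.09, adjusted p = 0.31) and Gpc1 at 0.47 (SE 0.15, adjusted p = 0.29). They overlapped for Gpc3 (-0.24, SE 0.12), Gpc4 (-0.12, SE 0.08) and Sdc3 (-0.02, SE 0.10; dimmer probe 0.05, SE 0.09).

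Inside the cell, 8 adaptor genes were tested and 6 of them had negative values, with a list median of -0.14. Crk, an adaptor of several receptor pathways, had the largest difference and smallest p of the 63 genes. It read 8.42, 7.94 and 8.28 in mutants a, b and c and 9.10, 9.03 and 8.91 in wildtypes d, e and f, a difference of -0.80 (SE 0.12, limma adjusted p = 0.0951) that did not pass. Ptpn11, the phosphatase SHP2 that relays FGF signals to RAS, was at -0.28 (SE 0.10, adjusted p = 0.331). In the kinase cascade, 10 genes were tested, 6 with negative and 4 with positive values and a median of -0.03. The groups did not overlap for 3 of the 10 (30%, against 19.7% of all probes). Braf was at 0.24 (SE 0.10, adjusted p = 0.397; dimmer probe 0.13, SE 0.11).

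The remaining feedback inhibitors had values from -0.04 to 0.25. Of 10 tested, 8 were positive and the median was 0.08. Spred2 (-0.03, SE 0.10), Spry3 (0.01, SE 0.09) and Il17rd (0.16, SE 0.09, adjusted p = 0.487; dimmer probe -0.0073, SE 0.08), a membrane antagonist of FGF signalling, did not pass, nor did the ERK phosphatase Dusp9 (0.25, SE 0.10, adjusted p = 0.355). The probes of Dusp4, another phosphatase of the family, disagreed in sign at 0.22 (SE 0.14) and -0.31 (SE 0.08, adjusted p = 0.241). A further 14 genes that respond to ERK, mainly transcription factors, were tested. Etv1, the third member of the PEA3 group, was at -0.0080 (SE 0.10). Ets2 had the smallest p of these genes at -0.54 (SE 0.14, adjusted p = 0.239), with mutants at 6.73 to 7.29 below wildtypes at 7.39 to 7.65.

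**Figure D4:**
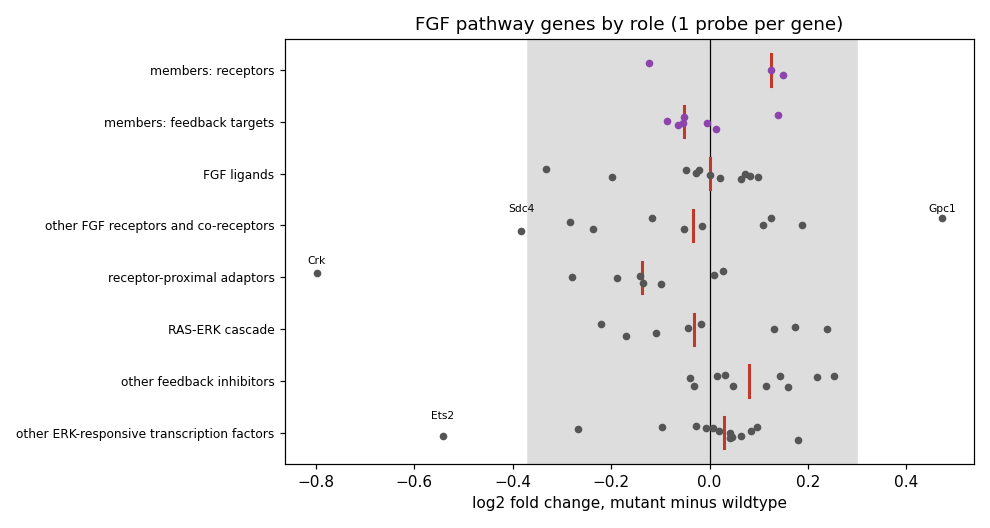
Log2 fold change (mutant minus wildtype) of tested genes by role, 1 probe per gene (genes not reported here are not drawn), with a red bar for the median of all tested genes in each row and the grey band for the central 95% of all probes. The 10 members (purple) lie within 0.15 of 0, and the drawn genes outside the band are Crk, Ets2 and Sdc4 on the lower side and Gpc1 on the upper side, of which 0 passed the test.

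Marker genes of tissues that the dissection could hold gave the following values beside those of the members. In a bulk sample, fewer cells of a type and less RNA per cell cannot be told apart. Of 15 tailbud and presomitic mesoderm markers, 10 had negative and 5 positive values, from -0.62 to 0.23 with a median of -0.10. Wnt3a had the smallest p of the list (-0.47, SE 0.08, limma adjusted p = 0.137). Of the 15, 3 (20%, against 12.2% of all probes) had an unadjusted limma p under 0.05, all lower. The groups did not overlap for 4 of the 15 (26.7%, against 19.7% of all probes). The list mean was 8.81 to 9.01 in mutants and 8.98 to 9.11 in wildtypes. Of 8 neural progenitor markers, 6 had negative values and Pax6 fell (-1.15, SE 0.09, limma adjusted p = 0.00287), while Fabp7 (0.21, SE 0.09, adjusted p = 0.397) and Nes (0.16, SE 0.07, adjusted p = 0.424) were the 2 with positive values. The list median was -0.13. An unadjusted limma p was under 0.05 for 3 of the 8 (37.5%, against 12.2% of all probes), 1 higher and 2 lower, so Pax6 was not the only lower gene. The groups did not overlap for 5 of the 8, in either direction (62.5%, against 19.7% of all probes). The list means did not overlap, at 8.32 to 8.50 in mutants and 8.62 to 8.66 in wildtypes, but without Pax6, an alternative chosen after seeing the data, they did, at 8.39 to 8.62 and 8.58 to 8.62. Limb field and lateral plate markers overlapped (8.53 to 8.73 and 8.61 to 8.67, 6 of 9 positive), as did erythroid markers (11.17 to 11.49 and 10.92 to 11.34). All 11 of 11 erythroid values were above 0, from 7.4e-05 to 0.49 with a median of 0.29, although the smallest did not differ from 0 in practice. Of the 11, 3 (27.3%, against 12.2% of all probes) had an unadjusted limma p under 0.05, all higher, and 0 passed the threshold. The groups did not overlap for 2 (18.2%, against 19.7% of all probes). Among surface ectoderm markers, 2 of 8 were positive. Their list means did not overlap, at 8.07 to 8.19 in mutants and 8.22 to 8.30 in wildtypes. The list median was only -0.03, so this gap does not show a drop across the list. Tfap2c had the smallest p and the lowest value of that list at -0.78 (SE 0.22, limma adjusted p = 0.264). Its probe was detected in 1 mutant only, but in 3 wildtypes. Without Tfap2c, an alternative chosen after seeing the data, the list means of the groups overlapped. The lists for somite (5 of 9 positive), surface ectoderm and endothelium (4 of 7) had 0 genes past the threshold. Their part in the members' values was not tested.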

How the data were processed

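Per the file headers, the authors quantified spot intensity with CodeLink Expression Analysis software. The deposited series table equals the scanner's normalized intensity (largest difference 0; linear scale, median 1 on each array). The sources used here do not give the genome build behind the array. Probes were named from the platform annotation, with symbols updated through RefSeq's genes for GRCm38.p6. Starting from spot mean and background median, normexp (offset 50) corrected the background of all spots. Control spots were then dropped, spots with a contaminated, irregular or masked mark were made missing, and the arrays were quantile-normalized on the log2 scale. A probe was tested if it was above background (marked good or saturated) on at least 3 of 6 arrays and had at least 2 usable values in each group. Tests used limma 3.58.1 (R 4.3.3) without covariates, with Benjamini-Hochberg adjustment over all 21688 probes and a threshold of 0.05. The fit was tested on simulated data. For a gene with several probes, the brightest stands for it in counts and medians. The text names all members, Fkbp8 and, per list, genes past the threshold and up to 4 others with the smallest p, not all of which are printed. Fgf8, Fgf10, Fgf18, Gpc4, Sdc3, Spry3, Spred2, Etv1 and genes named as untested were added for their role. Members and lists were chosen with earlier results of these data known. The number of arrays limits the precision. Some pathway genes are counted but not reported here by name.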

Additional observations from a re-analysis of the deposited data

How the results depend on the processing

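In 17 refits, 6 of them without 1 array each, 0 of the 10 genes passed limma's adjusted p of 0.05 (lowest adjusted p 0.33, for Spry1 without mutant c), and 0 passed at an adjusted p under 0.1. Of the pathway genes, 0 passed in those refits, and 1, Crk, passed at an adjusted p under 0.1 in the main fit (limma adjusted p = 0.0951). Among refits that kept probes separate, the limma adjusted p of Crk ran from 0.0577 (without mutant a) to 0.376 (without wildtype d). It was 0.118 with median centring and 0.287 with the deposited table, so this pass depended on the processing. Differences this close to 0 changed sign with the settings: Etv4 was 0.011 with median centring and 0.010 with array weights, Spred1 -0.0024 with cyclic loess and -0.0043 with the deposited table, and Spry4 0.036 as the mean of its probes. With arrays left out in turn, the range was -0.11 to 0.17 for Spred1, -0.096 to 0.0036 for the brighter Spry4 probe, -0.17 to 0.010 for Etv5, -0.15 to 0.0046 for Spry2, -0.19 to 0.15 for Dusp6 and -0.064 to 0.063 for Etv4. In the same refits the receptor median ranged from 0.033 (without wildtype f) to 0.13 and the feedback target median from -0.07 to 0.01. In the other 11 they ran from 0.11 to 0.16 (median centring) and from -0.06 to -0.0048. Fgfr1, Fgfr3 and Spry1 stayed positive and Fgfr2 negative in all 17. The dimmer Spry4 probe was not tested in 3 refits, without mutants b or c and with the filter on all 6 arrays. No paired analysis was possible because the labels give the groups no shared replicate number.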
